A study of Mus musculus with 4 samples.

Results

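The cells described here are antigen-presenting myeloid cells of the mouse salivary gland that carry next to no transcript of the complement component C1q. They were taken from single-cell RNA sequencing (scRNA-seq) of the submandibular gland (SMG) and the sublingual gland (SLG) by a rule on counts of unique molecular identifiers (UMIs), tags that each mark 1 captured RNA molecule. A barcode was a member when it held at least 10 UMIs of *Cst3*, at least 10 UMIs of *Cd74* and *H2-Aa* together, at most 2 UMIs of *C1qa*, *C1qb* and *C1qc* together, no UMI of the lymphocyte genes *Cd79a*, *Cd79b*, *Cd3e*, *Cd3d* and *Cd3g*, and less than 30% of its UMIs from the acinar gene *Mucl2*. The rule found 92 of the 15707 barcodes, or 0.586% (exact binomial 95% interval 0.472 to 0.718%).

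The samples came from SMG and SLG of wild-type female C57BL/6N mice aged 6 to 8 weeks, left untreated. The labels list 4 samples, all of this 1 group, and name 2 mice, whereas the methods of the study name another number. The tissue was digested with collagenases, hyaluronidase, dispase and pancreatin, and both glands were sequenced as 10x Genomics 3′ libraries. All barcodes lie in 1 matrix with 1 barcode suffix, so no cell could be traced to its sample, animal or gland, barcodes shared between libraries could not be counted, and the matrix counts as 1 sample. No test between samples was therefore possible and no p-value is given. All intervals below are 95% intervals that cover counting error only.

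Dendritic cells are myeloid cells that take up antigen in tissues, load its peptides on major histocompatibility complex (MHC) molecules and present them to T cells. Conventional dendritic cells come in a type that takes up dead cells and presents to CD8 T cells (cDC1) and a type that mainly presents to CD4 T cells (cDC2), and both can move through lymph vessels to the draining lymph node once they carry the chemokine receptor CCR7. Resident macrophages stay in the tissue, clear dying cells and are a main source of C1q. In salivary glands both kinds lie between acini and ducts.

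Members held 1383 to 28031 UMIs, with a median of 3140.5, and a median of 1071.5 genes. *Cst3*, the gene of the secreted protease inhibitor cystatin C, had 10 UMIs in the lowest member, 29 in the median member and 279 in the highest. *Cd74* (the invariant chain that guides class II molecules) and *H2-Aa* (a class II chain) together had between 16 and 197 UMIs, with a median of 102. C1q UMIs were 0 in 85 members, 1 in 6 and 2 in 1. These values chose the members and are given as a description. Just inside the rule were 7 members with 10 UMIs of *Cst3* and just outside it 5 barcodes with 9 UMIs. On the C1q side, 4 barcodes lay just outside with 3 UMIs and 0 with 4 UMIs. The lymphocyte genes left out 1 further barcode and the *Mucl2* limit 4.

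**Figure D1:**
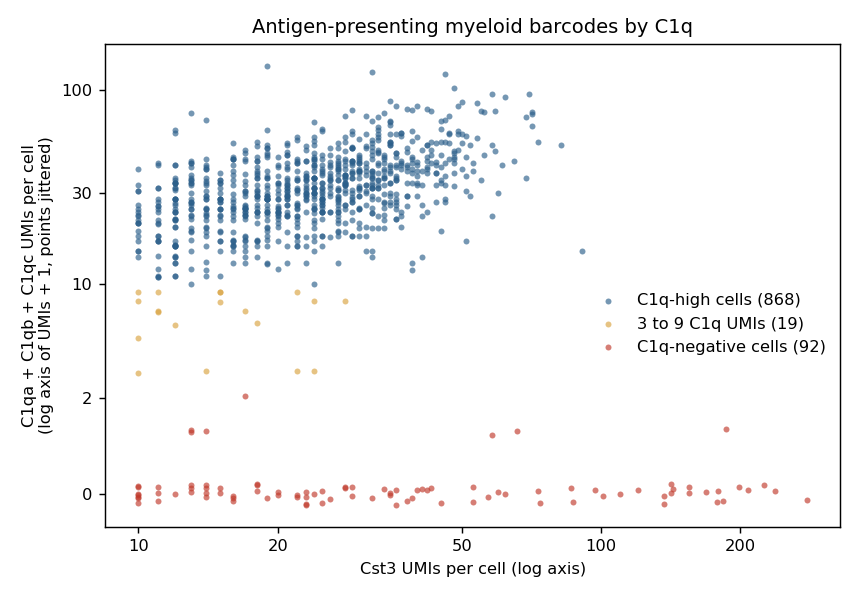
Each point is a barcode that passed the *Cst3*, class II, lymphocyte and *Mucl2* limits, with its *Cst3* UMIs on the horizontal log axis and its C1q UMIs plus 1 on the vertical log axis (slightly jittered). The 92 members lie at the bottom, 19 barcodes lie between the limits and the 868 C1q-high cells at the top, and members reach far higher *Cst3* counts (up to 279) than C1q-high cells (up to 91).

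Members were compared with the 868 barcodes that met the same limits but had at least 10 C1q UMIs, called C1q-high cells here, whose median was 2248.5 UMIs. A second comparison group was the 809 lymphoid cells, barcodes with at least 3 UMIs of *Nkg7* and the *Cd3* genes, under 10 UMIs of *Cst3* and no *Cd79a* or *Cd79b*. Their median was 2005 UMIs, and the share of them with a UMI of a myeloid gene serves as a measure of free RNA. It cannot measure droplets mixed with *Cst3*-rich cells, which the limit on *Cst3* leaves out. Gene levels are UMIs per 10000 UMIs, summed over the cells of a group, with an exact Poisson interval, and a log2 ratio is that of the levels in members and C1q-high cells. Genes with at least 20 UMIs in both groups together were counted as higher or lower in members when the levels differed at least 2-fold. Of 7023 such genes, 839 (11.9%) were higher and 1002 (14.3%) were lower, and the median log2 ratio was 0.08. A gene with 20 UMIs and equal levels would hold only 2.51 UMIs in members, so a low gene with UMIs in both groups can pass either limit by counting error. A group without a UMI was set to a floor of 3 counts, which keeps low genes with 0 UMIs in members from counting as lower. The counts over gene lists below are descriptions to be read against these shares.

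Droplets also held RNA of acinar cells. The summed share of 15 acinar genes had a median of 5.94% in members, 8.88% in C1q-high cells and 9.77% in lymphoid cells. In 7 members it was above 20%. A single member stood apart with 28031 UMIs, 81.2% of them from the demilune genes *Dcpp1*, *Dcpp2* and *Dcpp3*, and it held 7.91% of all member UMIs. Leaving it out, which was decided once the data had been seen, moved the counts from 839 higher and 1002 lower genes to 987 and 928. Scrublet called 0 barcodes doublets, so doublets were not removed by a working caller.

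Members were chosen for *Cd74* and *H2-Aa*, whereas lymphoid cells had a median of 0 UMIs of these 2 genes together. The values of *H2-Ab1* therefore describe the antigen presentation in the label and are no check on it. *H2-Ab1*, the class II chain that pairs with the product of *H2-Aa* and that the rule did not use, was detected in 89 of 92 members, at 0, 30 and 76 UMIs in the lowest, median and highest member, against 28 of 809, or 3.46%, of lymphoid cells. *Spi1*, which encodes the myeloid transcription factor PU.1, had a UMI in 64 members and in 0.865% of lymphoid cells. Members were low in macrophage transcripts beyond C1q. Of 14 macrophage genes counted (of 16 measured, C1q left out), 12 were lower in members, 0 were higher and the median log2 ratio was −3.16. *Apoe*, which encodes a lipid carrier that tissue macrophages secrete in bulk, had 0, 55.5 and 333 UMIs in the lowest, median and highest C1q-high cell. Only 9 members had any *Apoe* UMI, and 36 of the 49 UMIs lay in the *Dcpp*-rich member, without which the log2 ratio given below was −9.16. The level was 1.38 (1.02 to 1.83) in members and 228 in C1q-high cells, with a log2 ratio of −7.37 (−7.80 to −6.97), while lymphoid cells were at 1.37, so the level in members was no higher than that of cells that should lack it. *Apoe* lies on chromosome 7, 19696109 to 19699188 (minus strand, GRCm38).

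Most other macrophage genes were lower as well. *Csf1r*, the receptor for the growth factor that macrophages need, had 8 UMIs in members and 955 in C1q-high cells, a log2 ratio of −4.10 (−5.32 to −3.12). *Adgre1*, the gene of the F4/80 antigen, had 3 UMIs against 332. *Ms4a7* had 1 UMI in members and 1868 in C1q-high cells, with a log2 ratio of −8.07 (−13.37 to −5.59). *Pf4*, *C3ar1* and *C5ar1* had no UMI in members. Set to a floor of 3 UMIs over all members, their levels were 22.5-fold, 25.2-fold and 15.8-fold lower than in C1q-high cells. The summed level of the macrophage list without C1q was 14.2 in members and 280 in C1q-high cells. *Lyz2* (lysozyme) gave most of the list's UMIs in members, at a level of 8.75 against 19.7 in C1q-high cells, and 141 of its 310 UMIs lay in 13 cells that are described below as subcluster 4. Of the counted macrophage genes with a UMI in members, *Mrc1*, the mannose receptor, was nearest to level. It had 10 against 75 UMIs and a log2 ratio of −0.11 (−1.23 to 0.85). *Folr2* had 0 UMIs in members and 22 in C1q-high cells, and only the floor of 3 UMIs set its log2 ratio at −0.07.

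Class II levels were close in members and C1q-high cells, both of which had to hold at least 10 UMIs of *Cd74* and *H2-Aa* together to be chosen. *H2-Ab1* was at a level of 80.0 in members and 78.1 in C1q-high cells, a log2 ratio of 0.04 (−0.02 to 0.09). *H2-Eb1*, a further class II chain, was at 77.9 against 80.8, with UMIs in all 92 members and a log2 ratio of −0.05 (−0.11 to 0.01).

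Of 13 class II loading genes counted (of 15 measured, the rule genes left out), 5 were higher in members and 3 lower, with a median log2 ratio of 0.52. *H2-DMb2*, a chain of the H2-DM molecule that exchanges the invariant chain fragment for antigen peptide, had 60 UMIs in 37 members and 0 to 4 UMIs per cell, against 14 UMIs in all C1q-high cells and none in lymphoid cells. Its level was 1.69 (1.29 to 2.18) in members and 0.0568 in C1q-high cells, a log2 ratio of 4.90 (4.04 to 5.85). The other H2-DM chain genes did not share this difference, since *H2-DMb1* had a log2 ratio of 0.52 (0.32 to 0.71) and *H2-DMa* of 0.48 (0.26 to 0.69). *H2-DMb1* and *H2-DMb2* are near-identical neighbours, and reads could be split between them by the counting.

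*H2-Oa* and *H2-Ob*, the chains of H2-O, which restrains H2-DM, were also higher. *H2-Oa* had 38 UMIs in 29 members, a level of 1.07 against 0.219 and a log2 ratio of 2.29 (1.65 to 2.92). *H2-Ob* had 25 UMIs in 18 members, 13 of these UMIs in the cDC1-like cells described below, and a log2 ratio of 2.74 (1.89 to 3.59). *Ciita*, the master activator of class II transcription, had 24 UMIs in 21 members and none in lymphoid cells, with a log2 ratio of 1.18 (0.45 to 1.86). *Ifi30*, a thiol reductase that unfolds antigen in endosomes, was the most widespread of the higher genes, at 0, 3 and 19 UMIs in the lowest, median and highest member and UMIs in 82 members (8.41% of lymphoid cells). Its level was 10.2 (9.22 to 11.4) in members and 1.76 in C1q-high cells, a log2 ratio of 2.55 (2.34 to 2.75).

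The proteases of the list went the other way. *Ctss*, cathepsin S, which trims the invariant chain, was at 5.17 in members and 28.1 in C1q-high cells, a log2 ratio of −2.44 (−2.66 to −2.23), with a median of 2 UMIs in members and 7 in C1q-high cells. *Lgmn*, an asparagine-specific protease of lysosomes, had a log2 ratio of −2.31 (−2.86 to −1.80). *Cd83*, which stabilises class II at the surface, was at 8.66 (7.72 to 9.69) against 17.4, and it no longer reached 2-fold without the *Dcpp*-rich member, at a log2 ratio of −0.89.

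Class II promoters share a pair of short motifs known as the X and Y boxes, through which CIITA is recruited, and the stretch around them is shown for the class II genes that the results above turn on. The sequences are from RefSeq promoters on GRCm38.p6, each 5′ to 3′ on the strand of the gene. Capitals mark GCAAC (letters of the X box) and GATTGG (the CCAAT element of the Y box, read on the gene's strand).
H2-Aa, chr17:34287847-34287932, minus strand: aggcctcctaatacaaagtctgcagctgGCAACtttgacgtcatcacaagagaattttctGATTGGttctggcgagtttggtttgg
H2-Eb1, chr17:34305747-34305832, plus strand: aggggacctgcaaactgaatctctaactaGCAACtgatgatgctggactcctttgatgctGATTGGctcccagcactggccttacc
H2-DMb2, chr17:34145098-34145183, plus strand: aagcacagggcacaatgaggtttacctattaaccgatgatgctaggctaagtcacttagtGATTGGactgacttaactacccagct
H2-Oa, chr17:34092275-34092360, plus strand: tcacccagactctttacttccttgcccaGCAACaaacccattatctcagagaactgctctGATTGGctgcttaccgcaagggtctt
H2-Ob, chr17:34238787-34238872, plus strand: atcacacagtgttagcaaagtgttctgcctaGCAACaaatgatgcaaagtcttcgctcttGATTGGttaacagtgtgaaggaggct

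In 4 of these 5 promoters both motifs stood on the same strand, with 24 to 27 bases between them, and in *H2-DMb2* only GATTGG was found. The letters were chosen after these promoters had been seen, both strands were searched, and the motifs do not overlap. Among all 32851 promoters of the same length (250 bases before to 50 after the start, 27025 genes), GATTGG was in 16.1%, GCAAC in 35.2% and the pair with 10 to 40 bases between in 0.502%. Of 9 promoters of 8 class II H2 genes of the list, 8 held GATTGG and 5 the pair. A match is a description of letters, and these motifs were present both in genes that were level between members and C1q-high cells (*H2-Eb1*) and in genes that were higher in members (*H2-Oa*, *H2-Ob*).

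The class I route, which shows peptides from inside the cell to CD8 T cells, was higher in part. Of 16 class I genes, 7 were higher in members, 1 was lower, 8 did not differ 2-fold and the median log2 ratio was 0.87. The immunoproteasome subunits *Psmb9* and *Psmb8* had log2 ratios of 1.48 (1.11 to 1.83) and 1.19 (0.98 to 1.40), and the proteasome activator *Psme2* of 1.47 (1.19 to 1.75). Of the heavy chains, *H2-Q7* was higher at 1.55 (1.16 to 1.93), whereas *H2-K1* at 0.22 (0.07 to 0.37) and *H2-D1* at 0.40 (0.27 to 0.54) did not reach 2-fold, and *B2m*, the light chain, was at −0.23 (−0.39 to −0.06). Lymphoid cells express these genes too. *Cybb*, the NADPH oxidase subunit of phagosomes, was the lower gene, at −1.67 (−2.09 to −1.27).

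Clustering of the 92 members on genes other than the rule genes and the acinar list gave 5 subclusters, and 3 to 7 under other settings. Their defining genes are a description and were not tested, since the same cells made the clusters. Subcluster 1 held 33 members (35.9%, exact binomial interval 26.1 to 46.5%), subcluster 2 held 21 (22.8%), subcluster 3 held 15 (16.3%), subcluster 4 held 13 (14.1%) and subcluster 5 held 10 (10.9%). Subcluster 2 had 9 of 14 cDC1 markers, of which *Ifi205*, *Ppt1*, *Rab7b* and *Xcr1* were among its top 10 genes, and is called cDC1-like. Subcluster 3 had all 16 migratory dendritic cell markers and is called migratory DC-like. The others were left without a cell type name and go by genes picked from their top 10. These were *Cd209a* (rank 7) for subcluster 1 and *Lpl* (rank 2) and *Ear2* (rank 8) for subcluster 4. For subcluster 5 they were mitotic genes such as *Prc1*, *Ccnb1* and *Aurkb*. *Lpl* and *Ear2* each had a UMI in only 5 of the 13 cells of subcluster 4. The top 5 genes of subcluster 1 were acinar secretory genes, from the *Dcpp*-rich member, and *Fxyd2* was at rank 6. Without that cell *Fxyd2* was at rank 2 and *Cd209a* at rank 4. Subcluster 1 also had 6 of 14 cDC2 markers, but of these only *Cd209a* was among its top 10 genes.

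**Figure D2:**
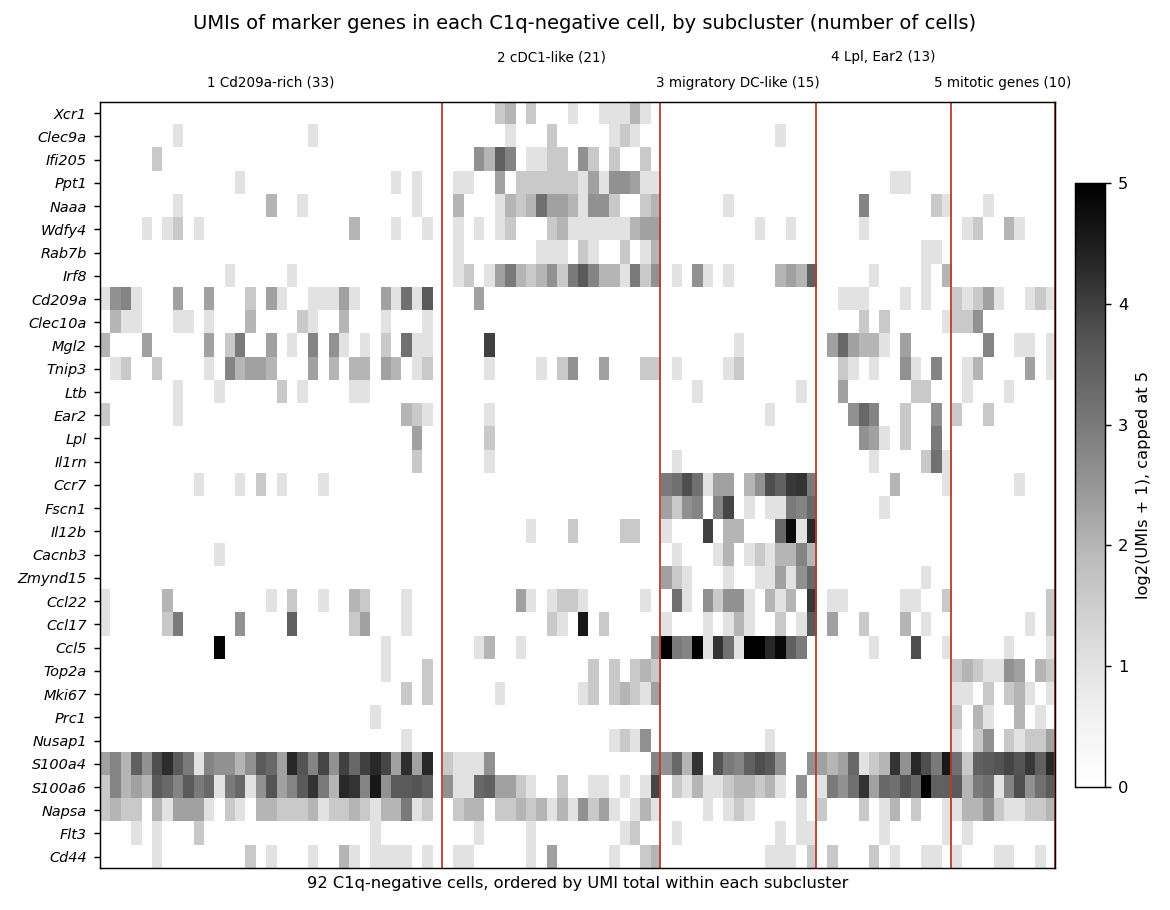
Each column is 1 of the 92 members, grouped by subcluster 1 to 5 and ordered within it by total UMIs, and each row is 1 of 33 genes; colour gives log2(UMIs + 1), capped at 5. The cDC1 genes lie mainly in subcluster 2, *Ccr7* and *Fscn1* in subcluster 3 and *Cd209a* in subclusters 1 and 5. *S100a4* and *S100a6* run across most columns outside subcluster 2.

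cDC1 genes lay mainly in the 21 cDC1-like cells. *Xcr1*, the chemokine receptor that defines cDC1, had 15 UMIs in 9 members, all cDC1-like and with at most 3 UMIs each, and 2 UMIs in the 868 C1q-high cells, a log2 ratio of 5.71 (3.60 to 8.88). It lies on chromosome 9, 123852315 to 123862029 (minus strand, GRCm38). *Clec9a*, the receptor by which cDC1 sense dead cells, had 10 UMIs in 8 members, 7 of the UMIs in cDC1-like cells, and none in C1q-high cells. Against the floor of 3 UMIs its level was 23.2-fold higher, and the interval of its log2 ratio began at 3.96. *Ifi205*, an interferon-induced gene, had 41 of 43 UMIs in cDC1-like cells and a log2 ratio of 5.42 (4.25 to 6.82). *Wdfy4*, needed for cross-presentation by cDC1, had 47 UMIs in 29 members, 27 of these UMIs in cDC1-like cells, and a log2 ratio of 3.55 (2.84 to 4.28).

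*Irf8*, the transcription factor that cDC1 depend on, was less specific. It had 75 of its 110 member UMIs in cDC1-like cells and 28 in migratory DC-like cells, was detected in 40.7% of lymphoid cells, and had a log2 ratio to C1q-high cells of 0.69 (0.38 to 0.99). *Batf3*, its partner in cDC1, was spread over all 5 subclusters with 36 UMIs in 25 members. *Cadm1* was the cDC1 gene that was lower, at 6 against 198 UMIs and a log2 ratio of −2.24 (−3.71 to −1.10). *Xcr1* and *Clec9a* had too few UMIs to be counted. Over the whole list 4 of 10 counted genes were higher and 1 lower. Its summed level was 34.7 (322 UMIs) in cDC1-like cells, between 4.02 and 9.93 in the other subclusters and 5.89 in C1q-high cells. The median of *Cst3*, a gene of the rule, was 143 UMIs in cDC1-like cells and 15 to 43 in the other subclusters, while the highest count of 279 lay in a migratory DC-like cell.

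*Cd209a*, which encodes a C-type lectin related to DC-SIGN, was nearly absent from C1q-high cells. It had 84 UMIs in 33 members and at most 11 in a cell, against 2 UMIs in C1q-high cells and none in lymphoid cells, a log2 ratio of 8.19 (6.29 to 11.26). Of these UMIs 61 lay in subcluster 1, 14 in subcluster 5, 5 in subcluster 4, 4 in cDC1-like and 0 in migratory DC-like cells. With every cell thinned to 500 UMIs, 16.3% (9.42 to 25.5%) of members, 0.115% of C1q-high cells and 0% of lymphoid cells still had a UMI. *Cd209a* lies on chromosome 8, 3743397 to 3748984 (minus strand, GRCm38).

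The other lectins that mark cDC2 went with it in part. *Clec10a* had 33 UMIs in 18 members, none of them in cDC1-like or migratory DC-like cells, and a log2 ratio of 4.04 (3.10 to 5.05). *Mgl2* had 103 UMIs in 28 members, of which 50 lay in subcluster 1 and 28 in subcluster 4, and a log2 ratio of 1.84 (1.48 to 2.19). Of 11 cDC2 genes counted, 6 were higher, 1 was lower and the median log2 ratio was 1.24. *Sirpa*, often used to sort cDC2, did not differ 2-fold, at 14 UMIs in members and a log2 ratio of −0.93 (−1.83 to −0.15), and *Tmem176b* was lower at −1.25. The level of the whole list was 24.3 in subcluster 1 and 21.5 in C1q-high cells, with medians of 9 and 5 UMIs per cell. The *Dcpp*-rich member lies in subcluster 1, and its 28031 UMIs lower that level. The level without it was not computed, so these values cannot decide whether the list's sum sets subcluster 1 apart from macrophages as *Cd209a* did.

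Genes of dendritic cells that have switched to migration lay mostly in 1 subcluster. Of 15 migratory genes counted, 14 were higher, 1 was lower and the median log2 ratio was 2.40. *Ccr7*, the receptor that guides dendritic cells to lymph nodes, had 127 UMIs in 22 members, and 116 of these UMIs lay in 14 of the 15 migratory DC-like cells, with 0, 7 and 17 UMIs in the lowest, median and highest of these cells. C1q-high cells held 5 UMIs in all, and the log2 ratio was 7.47 (6.21 to 9.11). *Ccr7* lies on chromosome 11, 99144196 to 99155077 (minus strand, GRCm38). *Fscn1*, whose product bundles actin in the long processes of mature dendritic cells, had 62 of 63 UMIs in the same subcluster and a log2 ratio of 7.78 (5.86 to 10.85). *Cacnb3* had 24 of 25 UMIs there. *Apol7c* had no UMI in C1q-high cells, and its level in members was 51.1-fold higher against the floor for a group without a UMI. The interval of its log2 ratio began at 5.25.

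The migratory DC-like cells stood out from other members in several groups at once. Their level of the migratory list was 128 (118 to 139), against 5.78 to 9.46 in the other subclusters. Their class I list level was 141 (131 to 152), against 55.2 in C1q-high cells, and their level of *B2m* was 20.3. The H2-DM chains were low in them, with 7 UMIs of *H2-DMa* and 3 of *H2-DMb1* (levels of 1.48 and 0.634, against 10.3 for *H2-DMb1* in cDC1-like cells), and the median of *H2-Ab1* was 5 UMIs per cell, whereas *H2-Eb1* had a median of 29 UMIs in them and 28 to 32 in the other subclusters. The class II list as a whole was at 170 (159 to 182) in them and at 201 over all members. *Il12b*, the gene of a subunit of interleukin 12 that drives type 1 T cell responses, had 78 of its 85 member UMIs in 8 of these cells, with up to 27 in a cell, and a log2 ratio of members to C1q-high cells of 1.80 (1.41 to 2.18). *Zmynd15* was the exception of the list. It had 29 of 30 member UMIs in these cells but was detected in 39.3% of C1q-high cells, so its log2 ratio was −1.30 (−1.89 to −0.77).

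Cells were also counted by whether they held at least 2 UMIs of short gene sets. The cDC1 set (*Xcr1*, *Clec9a*, *Ifi205*, *Ppt1*, *Naaa*, *Wdfy4*) was reached by 29 members, 19 of them cDC1-like. The *Cd209a* set (*Cd209a*, *Clec10a*, *Mgl2*) was reached by 35 members, and the migratory set (*Ccr7*, *Fscn1*, *Cacnb3*, *Nudt17*, *Apol7c*, *Zmynd15*) by 16. No member reached the migratory set together with either other set, whereas 7 reached both the *Cd209a* and the cDC1 set, and 19 reached none. The sets were chosen with the subclusters known.

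**Figure D3:**
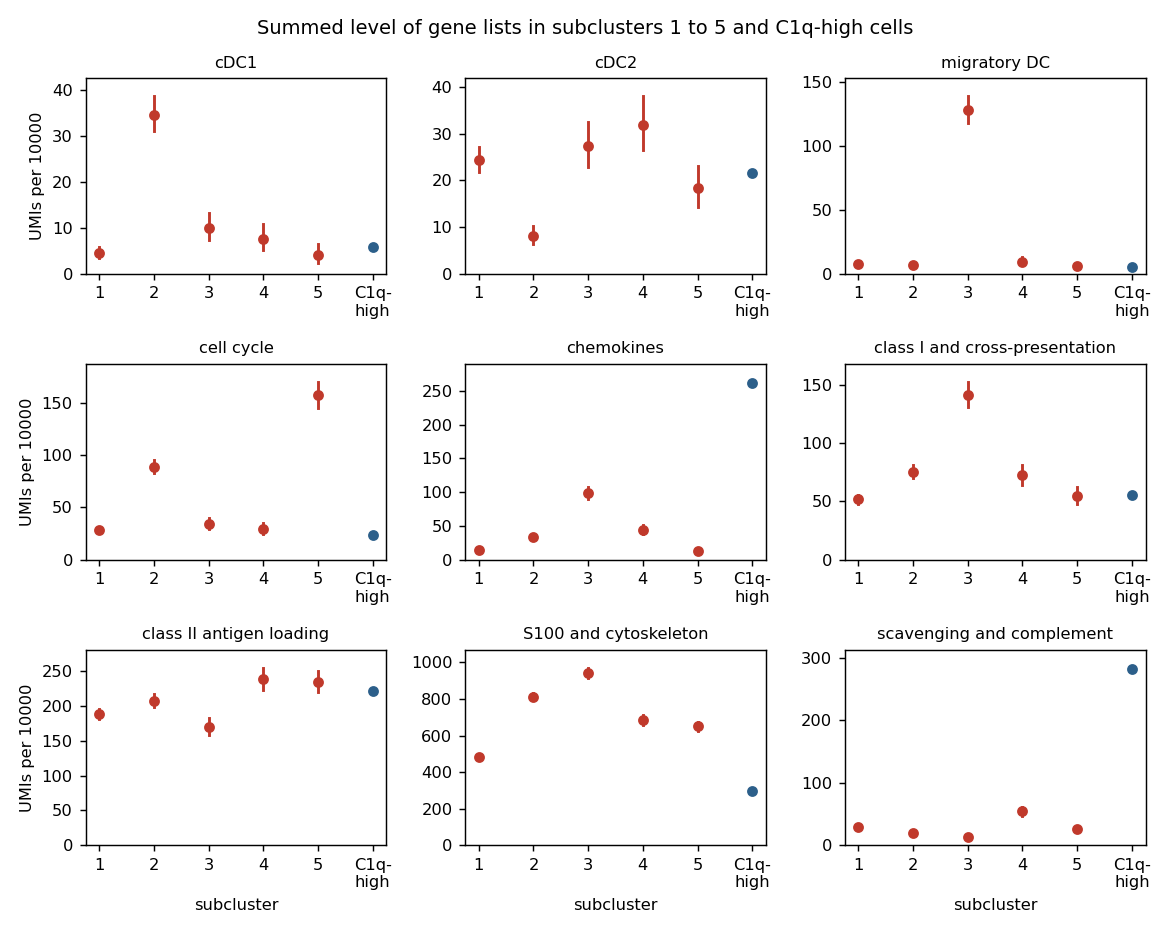
Each of the 9 panels shows the summed level of a gene list (UMIs per 10000) in subclusters 1 to 5 and in C1q-high cells, with exact Poisson 95% intervals as bars. The migratory list is at 128 in subcluster 3, the cDC1 list at 34.7 in subcluster 2 and the cell cycle list at 157 in subcluster 5. The scavenging and complement list without C1q is at 282 in C1q-high cells and at most 54.1 in a subcluster. Levels of subcluster 1 are taken over a total that includes the 28031 UMIs of the *Dcpp*-rich member, which lowers them.

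Genes shared by all conventional dendritic cells were few but present. *Flt3*, the receptor of the growth factor that dendritic cells need, had 17 UMIs in 15 members, 1 UMI in C1q-high cells and none in lymphoid cells. Its log2 ratio was 6.89 (4.21 to 12.27), but it had too few UMIs to be counted. Against all 15615 other barcodes, which held 7 *Flt3* UMIs in all, it had the highest ratio of the genes ranked, at a log2 ratio of 9.74 (8.40 to 11.25). *Zbtb46*, a transcription factor of conventional dendritic cells, had only 6 UMIs in members and 4 in C1q-high cells, too few to set a level. *Itgax*, which encodes CD11c, did not reach 2-fold, at 35 UMIs in 24 members and a log2 ratio of 0.57, and it was detected in 28.4% of lymphoid cells. *Siglech*, a marker of plasmacytoid dendritic cells, had no UMI in members and 70 in C1q-high cells. Of 8 counted genes of the plasmacytoid list, 1 was higher (*Smim5*), 2 were lower (*Siglech* and *Bst2*) and 5 did not differ 2-fold. The median log2 ratio was −0.18. The list had a UMI in 62 members, and its level was 5.50 in members, 10.2 in C1q-high cells and 7.12 in lymphoid cells.

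Monocyte genes were split. Of 11 counted, 5 were higher, 1 was lower and the median log2 ratio was 0.98. *Ccr2*, the receptor by which monocytes leave the marrow, had 51 UMIs in 33 members, none of them in migratory DC-like cells, and a log2 ratio of 2.95 (2.34 to 3.56), but it was also detected in 24.1% of lymphoid cells. *Plac8* had 32 UMIs in 17 members, of which 19 lay in cDC1-like cells and 11 in subcluster 5. It had no UMI in C1q-high cells, and its level was 74.3-fold higher against the floor of 3 UMIs. The classical monocyte genes *Ly6c2* and *Chil3* had 1 and 0 UMIs in members. *Cx3cr1*, which marks patrolling monocytes and many resident macrophages, had 10 UMIs in members and was detected in 65.1% of C1q-high cells, with a log2 ratio of −4.03 (−5.09 to −3.14). *Fn1* was carried by 2 cells of subcluster 4.

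Chemokines differed between members and C1q-high cells in both directions. Of 17 counted, 5 were higher and 9 lower, and the median log2 ratio was −1.54. *Cxcl2*, a neutrophil attractant, had 0, 12.5 and 157 UMIs in the lowest, median and highest C1q-high cell, but only 11 members held any. Its level was 1.81 (1.39 to 2.31) in members and 66.6 in C1q-high cells, a log2 ratio of −5.21 (−5.58 to −4.85). *Ccl3* and *Ccl4*, which attract monocytes and lymphocytes, had log2 ratios of −5.89 (−6.58 to −5.28) and −4.81 (−5.04 to −4.59), with 21 and 168 UMIs in members.

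The higher chemokines were *Ccl17*, *Ccl22*, *Cxcl9*, *Ccl5* and *Ccl6*. *Ccl17*, a ligand of CCR4 that draws in T cells, had 94 UMIs in 26 members and up to 23 in a cell, against 1 UMI in all C1q-high cells and none in lymphoid cells. Its log2 ratio was 9.35 (6.84 to 14.67), the highest against C1q-high cells among the genes ranked, and its UMIs were spread over all 5 subclusters (32, 28, 21, 10 and 3). *Ccl22*, the other CCR4 ligand and a neighbour of *Ccl17* on chromosome 8 (94745590 to 94751699 and 94810453 to 94812036, both plus strand, GRCm38), had 84 UMIs in 32 members, 50 of these UMIs in migratory DC-like cells, and a log2 ratio of 5.02 (4.28 to 5.84). *Cxcl9*, an interferon-induced attractant of effector T cells, had 64 of 70 UMIs in 5 cDC1-like cells, the highest with 30.

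*Ccl5*, which attracts T cells and other leukocytes, had 394 UMIs in 25 members, 338 of these UMIs in 14 migratory DC-like cells with a median of 10 and a maximum of 83. Its log2 ratio was 2.38 (2.19 to 2.57). Because lymphoid cells are rich in *Ccl5* (81.8% of cells), the other genes of cytotoxic lymphocytes were read beside it. *Nkg7*, carried by 97.4% of lymphoid cells, had 8 UMIs in 4 members and 0 in migratory DC-like cells, and *Gzma*, *Gzmb* and *Prf1* had none in any member. Of 9 counted genes of the natural killer list, 3 were higher in members, namely *Ccl5*, *Klrk1* and *Klrd1*. *Klrd1*, the gene of the receptor chain CD94, had 73 UMIs in 36 members of all 5 subclusters and a log2 ratio of 3.47 (2.91 to 4.03). The summed level of the list was 15.1 in members, 3.73 in C1q-high cells and 105 in lymphoid cells.

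Of 16 cytokine and cytokine receptor genes counted, 3 were higher in members and 3 lower. *Il1b*, the gene of the inflammatory cytokine interleukin 1β, was detected in 62 members, at 0, 6.5 and 43 UMIs in the lowest, median and highest. Its level of 22.4 against 39.2 in C1q-high cells did not differ 2-fold, with a log2 ratio of −0.81 (−0.91 to −0.70). *Il1a* and *Tnf*, which act beside it, were much lower, with log2 ratios of −5.21 (−6.34 to −4.29) and −3.29 (−3.89 to −2.76). *Csf2rb*, the shared receptor chain for GM-CSF and interleukin 3, was higher with 47 UMIs in 30 members, none in lymphoid cells and a log2 ratio of 3.11 (2.46 to 3.76). The other higher genes were *Il12b*, given above, and *Il1r2*.

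Among 7 co-stimulation genes counted (of 14 measured), 2 were higher and 0 lower, and the median log2 ratio was 0.05. *Cd80*, a ligand of CD28, had 13 UMIs in 12 members and 2 in C1q-high cells, a log2 ratio of 5.50, but too few UMIs to be counted. *Cd86*, the other CD28 ligand, had 36 UMIs in members, 23 of these UMIs in cDC1-like cells, and a log2 ratio of −0.54 (−1.07 to −0.04). *Cd40*, the receptor through which T cells signal back, was at 1.73 (0.86 to 2.55) with 19 UMIs in 13 members.

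*Cd44*, the hyaluronan receptor of moving leukocytes, was the marker gene of these cells that the rule did not use. It had 43 UMIs in 31 members, with 0 UMIs in 61 cells, 1 in 23, 2 in 5, 3 in 2 and 4 in 1. The share of members with a UMI was 33.7%, against 7.26% of C1q-high cells and 8.53% of lymphoid cells, at median depths of 3140.5, 2248.5 and 2005 UMIs. With every cell thinned to 500 UMIs the shares were 7.61% (3.11 to 15.1%), 0.922% (0.399 to 1.81%) and 1.48% (0.769 to 2.58%). The level was 1.21 (0.878 to 1.63) in members, 0.272 (0.210 to 0.345) in C1q-high cells and 0.349 (0.274 to 0.439) in lymphoid cells, and the log2 ratio to C1q-high cells was 2.16 (1.57 to 2.73). Subclusters did not separate on *Cd44*, with levels of 1.03, 1.40, 1.06, 1.84 and 1.01 whose intervals overlapped. *Cd44* lies on chromosome 2, 102811141 to 102901665 (minus strand, GRCm38).

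**Figure D4:**
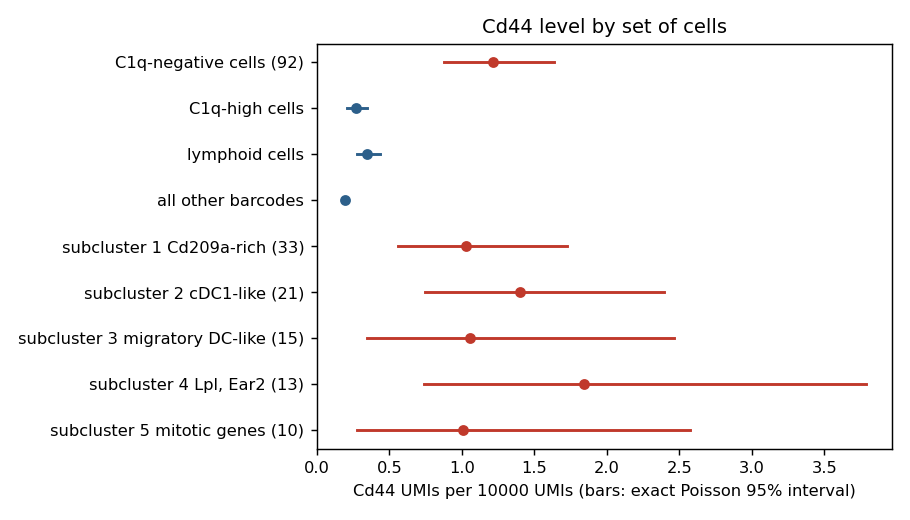
The level of *Cd44* (UMIs per 10000) is shown for members, C1q-high cells, lymphoid cells, all other barcodes and the 5 subclusters of members, as points with exact Poisson 95% intervals. Members sit at 1.21, above C1q-high cells at 0.272 and lymphoid cells at 0.349, and the intervals of the 5 subclusters overlap.

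Of 16 receptors for movement and adhesion counted, *Cd44* included, 7 were higher, 1 was lower, 8 did not differ 2-fold and the median log2 ratio was 0.90. *Itgb7*, the integrin chain of gut and mucosal homing receptors, had 45 UMIs in 29 members, none in migratory DC-like cells, and a log2 ratio of 4.97 (3.96 to 6.12), while 11.2% of lymphoid cells had a UMI. Its partner *Itga4* had 36 UMIs in 24 members, 17 of these UMIs in migratory DC-like cells, and a log2 ratio of 2.72 (2.02 to 3.42). *Cxcr4* was at 1.36 (0.56 to 2.10). The list level was 41.6 in migratory DC-like cells, 15.2 to 23.4 in the other subclusters and 12.8 in C1q-high cells.

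Small calcium-binding S100 proteins and cytoskeletal genes were higher in members as a group. Of 23 counted, 17 were higher, 0 lower and the median log2 ratio was 2.90. *S100a4*, tied to cell movement, was detected in 73 members, at 0, 5 and 23 UMIs in the lowest, median and highest, and in 3.46% of C1q-high cells. Its level was 18.1 against 0.332, with a log2 ratio of 5.77 (5.44 to 6.12), and after thinning to 500 UMIs it was found in 55.4% of members and 1.04% of C1q-high cells. It is not a marker of these cells alone, since 56.6% of lymphoid cells had a UMI. It was low in cDC1-like cells, with 16 UMIs in 6 of 21 cells. *S100a4* lies on chromosome 3, 90603771 to 90606045 (plus strand, GRCm38).

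*Crip1*, a small LIM-domain protein gene, was detected in 91 members, at 0, 17 and 88 UMIs in the lowest, median and highest, and had a level of 53.0 against 4.16 and a log2 ratio of 3.67 (3.56 to 3.78). *Vim* (vimentin, an intermediate filament), *Tmsb10* (an actin-binding thymosin) and *Lsp1* (a leukocyte actin-binding protein) had log2 ratios of 3.00, 3.23 and 3.06. *Napsa*, an aspartic protease gene, had 153 UMIs in 68 members (9.64% of lymphoid cells) and a log2 ratio of 4.57 (4.08 to 5.08). Level between both groups was *Lcp1*, an actin-bundling protein of leukocytes, at −0.05 (−0.34 to 0.23). Most of these genes were also detected in a large share of lymphoid cells, from 30.7% for *Lsp1* to 99.8% for *Tmsb10*.

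Lysosomal and clearance genes were lower. Of 14 lysosomal genes counted, 9 were lower, 0 higher and the median log2 ratio was −1.46. *Ctsb*, cathepsin B, was at 1.35 in members and 9.57 in C1q-high cells, a log2 ratio of −2.82 (−3.26 to −2.41). *Ctsd*, cathepsin D, had only 20 UMIs in 12 members, although 64.3% of lymphoid cells had a UMI, and a log2 ratio of −2.28 (−3.00 to −1.64). *Psap*, whose product activates lipid-degrading enzymes, was level at 0.09 (−0.06 to 0.23), with 201 of 444 UMIs in cDC1-like cells. Of 18 scavenging, efferocytosis and complement genes counted (C1q left out), 12 were lower and 3 higher. The higher ones were *Cfp* (properdin, a complement activator) with 37 UMIs in 28 members at 3.20 (2.45 to 3.96), *Lgals3* (galectin 3) at 1.26 (1.06 to 1.46) and the inhibitory Fc receptor *Fcgr2b* at 1.19 (0.59 to 1.75), while the activating receptors *Fcgr3* and *Fcgr1* were lower at −2.87 and −2.32.

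Receptors for microbial products were lower in 7 of 17 counted genes and higher in 2, with a median log2 ratio of −0.37. *Cd14*, the lipopolysaccharide co-receptor, had 42 UMIs in 19 members, and its level of 1.19 against 16.4 gave a log2 ratio of −3.79 (−4.27 to −3.35). *Tlr2*, which senses bacterial lipoproteins, and *Nlrp3*, an inflammasome sensor, were at −2.45 (−3.22 to −1.78) and −2.40 (−3.14 to −1.75). The genes that were higher were the lectins *Cd209a* and *Clec10a*, described above.

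Of 10 secreted defence genes counted, 4 were higher in members and 1 was lower. *Ear2*, an eosinophil-associated ribonuclease that some myeloid cells express, had 42 UMIs in 14 members, 27 of these UMIs in subcluster 4, against 1 UMI in C1q-high cells, a log2 ratio of 8.19 (5.63 to 13.53). *Lyz2* was the lower gene, at −1.17 (−1.34 to −1.01), which became −0.99 without the 7 members rich in acinar RNA, a choice made with the data seen. *Lpo*, the salivary peroxidase of acinar cells, had 4 UMIs in 4 members, a share close to the 4.08% of lymphoid cells with a UMI.

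Lineage transcription factors differed in both directions, with 3 of 18 counted higher, 4 lower and a median log2 ratio of 0.58. Higher were *Nr4a3*, an activity-induced nuclear receptor, at 1.73 (1.34 to 2.11), *Relb*, an NF-κB subunit of mature dendritic cells, at 1.69 (1.08 to 2.27) with 22 of 37 UMIs in migratory DC-like cells, and *Notch2* at 1.52 (0.51 to 2.46). *Irf4*, which cDC2 and migratory cells depend on, had 13 UMIs in 10 members against 4 in C1q-high cells, a log2 ratio of 4.50, but too few UMIs to be counted. Among the lower ones were *Maf*, *Cebpa* and *Cebpb*, the last at −1.97 (−2.53 to −1.47). *Id2*, needed for cDC1, did not reach 2-fold, at 0.83 (0.53 to 1.12), and of its 122 UMIs 47 lay in cDC1-like and 62 in migratory DC-like cells.

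Cell cycle genes were higher, 13 of 18 counted with 0 lower and a median log2 ratio of 1.44. *Top2a*, the mitotic topoisomerase, had 37 UMIs in 16 members, 23 of these UMIs in subcluster 5, 11 in cDC1-like cells, 3 in subcluster 1 and 0 in subclusters 3 and 4. *Stmn1*, a microtubule regulator of dividing cells, had 0 to 17 UMIs per member with 75 UMIs in subcluster 5, 60 in cDC1-like cells and 0 in migratory DC-like cells. Its level was 4.57 (3.90 to 5.33) in members and 1.62 in C1q-high cells, and that of *Top2a* 1.04 (0.735 to 1.44) against 0.369. A set of 6 mitotic genes (*Mki67*, *Top2a*, *Birc5*, *Cdk1*, *Ccnb2*, *Ube2c*) reached 2 UMIs in 20 members. Among these were all 10 cells of subcluster 5, which clustered on such genes, 8 cDC1-like cells and no migratory DC-like cell. Of the 20, 10 also reached the cDC1 set and 9 the *Cd209a* set.

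Immediate early and stress genes, which rise during tissue dissociation, were level or lower. Of 22 counted, 6 were lower, 0 higher and the median log2 ratio was −0.57. *Egr1* was at −1.94 (−2.30 to −1.60), *Atf3* at −1.61 (−1.81 to −1.42) and *Jun* at −1.52 (−1.77 to −1.28), whereas *Fos* at −0.89 and the heat shock gene *Hspa1a* at −0.64 did not reach 2-fold. Their part in the other differences was not tested.

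**Figure D5:**
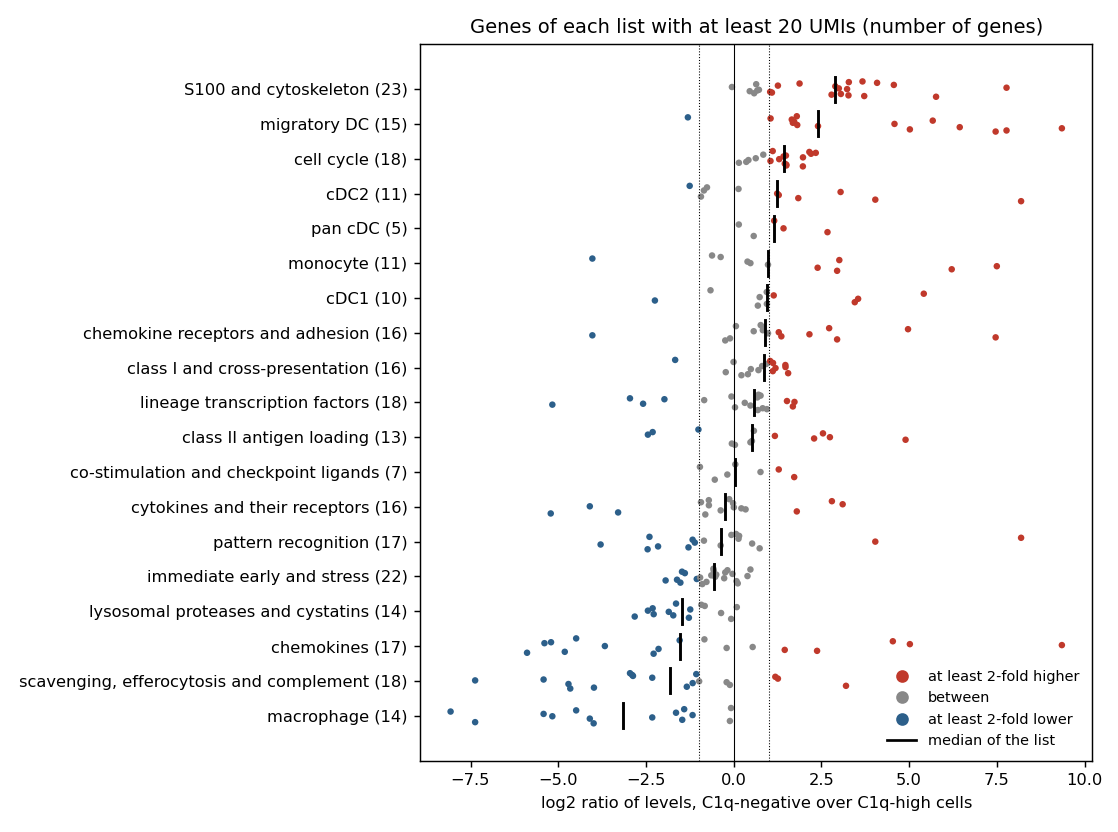
Each point is a gene with at least 20 UMIs in members and C1q-high cells together, placed by its log2 ratio (members to C1q-high cells) in 1 of 19 gene lists; black bars are list medians and dotted lines mark 2-fold. Medians run from 2.90 for the S100 and cytoskeleton list and 2.40 for the migratory list down to −1.83 for scavenging and −3.16 for the macrophage list.

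Markers of other cell types were read over whole lists. *Cd79a*, *Cd79b* and the *Cd3* genes are at 0 by the rule, and *Ms4a1*, *Jchain* and *Trac*, which the rule did not use, had no UMI either. Over the whole lists, the B cell list had 34 UMIs in 28 members, 32 of them from *Ighm*, at a level of 0.960 against 1.29 in C1q-high and 1.13 in lymphoid cells. The T cell list had 17 UMIs in 14 members, 15 of them from *Il7r*, at 0.480 against 0.604 in C1q-high and 8.81 in lymphoid cells. The neutrophil genes *S100a8*, *S100a9*, *Ly6g* and *Cxcr2* and the mast cell genes *Cpa3*, *Mcpt4* and *Fcer1a* were also at 0. The neutrophil list had 21 UMIs in 18 members, 18 of them from *Il1r2*, which was higher than in C1q-high cells at a log2 ratio of 2.80 (1.77 to 3.83), and the mast cell list had 5 UMIs in 4 members, from *Kit*. Of the 14 acinar genes counted (*Mucl2* left out), 0 were higher and 3 lower in members. Of the duct genes, 0 of 10 were higher and 4 lower, and of the fibroblast genes only *Col1a2* was higher, with 6 UMIs in 1 cell of subcluster 4. Among the 20 genes with the highest ratios to C1q-high cells, those that belong to no list included *Adam8*, *Ifitm6*, *Mcemp1*, *Siglecg*, *Glipr2*, *Jaml* and *Lmo1*. *Mcemp1*, a membrane protein gene of myeloid cells, had 49 UMIs in 31 members, 7 in C1q-high cells and none in lymphoid cells, with a log2 ratio of 5.61.

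Genes with a UMI in at least 10% of members were ranked by their ratio to all 15615 other barcodes. The top 20 were led by *Flt3*, *Ccl17* and *Ccr7*, at log2 ratios of 9.74, 9.69 (9.14 to 10.26) and 9.47 (9.02 to 9.93). *Clec9a* and *Xcr1* had higher log2 ratios of 11.8 and 9.78, but were not ranked, with a UMI in 8.70% and 9.78% of members. *H2-DMb2* had 60 UMIs in the 92 members and 34 in all other barcodes together, a log2 ratio of 9.28 (8.65 to 9.93). *Cd209a* and *Ccl22* each had 84 UMIs in members and 55 in all others, a log2 ratio of 9.07 (8.56 to 9.59). *Tnni2*, a troponin gene, had 52 UMIs in 32 members and 32 elsewhere. The 0.586% of barcodes that are members thus held more than 3 in 5 of all UMIs of *Cd209a*, *Ccl22*, *Ccl17*, *Ccr7* and *H2-DMb2* in the matrix.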

How the data were processed

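The authors deposited 1 matrix of raw UMI counts, made by Cell Ranger, with no normalization. The submitters' processing notes name Cell Ranger 6.0.1, Seurat 4.1.1 and the build mm10. For the gene annotation, it is not given in the sources used here. All 4 samples form 1 group, and none of the barcodes could be given a sample.

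All 15707 barcodes were kept and members found by the rule on UMIs. The members and all gene lists were chosen with earlier results of these data known. Levels are summed UMIs per 10000 with exact Poisson intervals, shares carry exact Clopper-Pearson intervals, and ratios carry conditional exact binomial intervals, all at 95%. A group without a UMI was set to a floor of 3 counts over the group. Member clusters came from counts log-normalized to 10000, 1500 variable genes, 10 principal components, 15 neighbours and the Leiden method at a resolution of 0.8 with seed 0. A subcluster was named when at least 3 markers were higher in it than in the other members with a UMI in 25% of cells or more, and some of them stood among its top 10 genes. Subcluster 1 was left unnamed, with *Cd209a* as the only gene of its 6 cDC2 markers among its top 10. Its acinar markers were not used to name it. The genes named are those of the lists, the 20 with the highest and the 20 with the lowest ratio to C1q-high cells, the 20 highest against all other barcodes (each with a UMI in at least 10% of the cells of the higher group) and the top 10 of each subcluster. The files hold no entry for 3 listed genes. The study's other data were not analysed here.

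Gene positions were looked up in GENCODE M21 (GRCm38) and promoters from RefSeq on GRCm38.p6. Tools were Python 3.11.15, numpy 2.4.6, scipy 1.17.1, pandas 2.3.3, scanpy 1.11.5, leidenalg 0.10.2 and matplotlib 3.10.9. Levels, ratios and clustering were tested on simulated data. Alternatives changed the rule's limits, the barcodes kept, the denominator, the depth, the UMI minimum and the clustering.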

Additional observations from a re-analysis of the deposited data

How the results depend on the processing

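Of 87 values recomputed under other settings, 78 stayed within the limits set for them and 9 moved. The limits were wide, since 7 subclusters in place of 5 still counted as within them. Most of the values are counts of cells, genes or subclusters, which have no sign. Only the log2 ratio of *Cd44* to C1q-high cells could reverse, and it stayed positive, between 2.04 and 3.05. The balance of higher and lower genes did turn: it was 839 to 1002 in the main comparison, but 1024 to 926 with C1q at 0 UMIs, 987 to 928 without the *Dcpp*-rich member and 1040 to 976 without the 7 acinar-rich members. A *Cst3* limit of 20 UMIs left 61 members in 3 subclusters, and a clustering resolution of 0.4 also gave 3. With every cell thinned to 500 UMIs, 317 genes were higher and 397 lower of 2209 counted, and the log2 ratio of *Cd44* was 3.05 from few UMIs. A minimum of 50 UMIs left 385 higher and 532 lower genes of 4129, and a minimum of 1 UMI gave 5917 higher and 1207 lower genes of 14261. That last count of higher genes includes genes without any UMI in members, such as *Ms4a1*, because the floor of 3 counts stands in for them. With the acinar list left out of the totals the counts were 733 higher and 1115 lower. Leaving out the *Dcpp*-rich member or the 7 acinar-rich members, chosen after seeing the data, gave 4 subclusters. The cluster that held most cDC1-like cells had 14 to 31 cells over the settings and the one with most migratory DC-like cells 12 to 16. No paired analysis was possible because all samples are of 1 group in 1 matrix. Depth limits the low genes, since the floor of 3 counts is a level of 0.0847 per 10000 UMIs in members. With no sample of origin for any barcode, spread between animals is unknown.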
